A study of Mus musculus with 9 samples.

Results

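Spermatocytes in late pachytene and diplotene were chosen by the UMIs of 4 transcripts that rise as a male germ cell leaves mid pachytene: Pou5f2, a POU-domain transcription factor of meiotic cells, Acr, the acrosomal protease proacrosin, Pgk2, the autosomal copy of phosphoglycerate kinase, and Ccna1, the meiotic A-type cyclin. A barcode was kept when it held over 1000 detected genes, under 10% mitochondrial unique molecular identifiers (UMIs) and at least 10000 UMIs, when these 4 genes summed to at least 20 UMIs, and when that sum was at or above the UMIs of Piwil1, a piRNA-binding protein of pachytene cells. Of 45132 barcodes past the gene and mitochondrial limits, 1647 met the rule (3.65%), which is 9.82% of the 16769 barcodes with at least 10000 UMIs. Nothing about Nelfb or Tardbp UMIs entered the choice.

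The cells came from single-cell RNA-seq of whole testes of 9 C57BL/6 mice at post-natal day (PND) 24, with 1 droplet library of 3′ cDNA per mouse. There were 4 control mice, 2 NELF-B conditional knockouts (cKO) and 3 TDP-43 cKO mice. In the methods, a cKO mouse carries 1 floxed and 1 null allele of Nelfb or of Tardbp together with Stra8-iCre, a transgene driven by the promoter of Stra8 that is active in male germ cells from the spermatogonial stage on, so that somatic cells keep the floxed allele. The controls were littermates or non-littermates, and the labels give no allele for them. NELF-B is a subunit of the complex that holds RNA polymerase II in its promoter-proximal pause, and TDP-43 is a DNA- and RNA-binding protein.

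In late prophase I the synapsed homologues desynapse, the cell loads cyclins and mitotic kinases for the meiotic divisions, and transcripts for the acrosome and the sperm tail begin to build up. The X and Y chromosomes are packed into the sex body and silenced from pachytene on, and autosomal retrocopies such as Pgk2 stand in for their silenced X-linked parents. After the divisions, round spermatids (RS) transcribe part of the X chromosome again. The share of X-linked UMIs and the RS transcripts place a cell on this path, and neither was in the rule.

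The deposited libraries held between 119203347 and 159407373 UMIs. The chosen cells had a median of 57144 UMIs (15127 to 519227) and 7524 detected genes, and 1 barcode occurred in more than 1 library. The rule lay in a filled region, with 181 cells at a marker sum of 20 to 24 UMIs against 108 otherwise eligible barcodes at 15 to 19, and with 42 chosen cells whose sum was within 10% of their Piwil1 count. At least 10 UMIs of Sertoli markers were found in 137 chosen cells, of Leydig markers in 4 and of macrophage markers in 0. Prm1, a protamine gene of late spermatids, differed between libraries of the same genotype. In barcodes of at most 100 UMIs, which hold free RNA, it stood at 497 to 1023 CPM, its UMIs scaled to a common total, in control replicates 1, 3 and 4 and NELF-B cKO replicate 1. It stood at 5.12 in control replicate 2, 2.21 in NELF-B cKO replicate 2 and 0.352 to 4.74 with TDP-43 cKO. The shares of cells per range, Tardbp, the X-linked share and the lists of late genes are therefore compared between genotypes also without control replicate 2. In those comparisons every control left has high free Prm1 and every TDP-43 cKO mouse low, so this split and the TDP-43 genotype cannot be told apart.

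The label was met in part. Pou5f2 had 0 UMIs in 705 of the chosen cells (42.8%), and many of the chosen cells carried RS transcripts. The summed level of 8 RS markers (Acrv1, Tsga8, Spaca1, Ccdc81, Gapdhs, Tssk1, Tssk3 and Spata31) ran without a gap from 0 to over 6400 CPM. For description it was cut, after the values had been seen, into a low range under 200 CPM (634 cells), a middle range from 200 to under 1600 CPM (300 cells) and a high range from 1600 CPM up (713 cells). These are ranges of a score, not cell types, and 53 and 72 cells lay within 20% of the lower and upper limit. Of the low range, 493 cells held at least 10 Pou5f2 UMIs, and of the high range 0 did, which describes the choice, since Pou5f2 is a gene of the rule. The RS markers and the X-linked share of UMIs, which the rule did not use, both go against the label in the high range, which is described here by its RS markers.

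The promoters of 4 genes that order these cells are shown because their transcripts peak one after the other along the score: Pou5f2 in the low range, Ccna1 in the middle range, and Tsga8 and Acrv1 in the high range. Tsga8 and Acrv1 are part of the score, which sets where they peak, and Pou5f2 and Ccna1 are genes of the rule. The order is therefore a description. Each sequence is RefSeq on GRCm38.p6 and runs from 250 bases before to 50 bases after the annotated start on the gene's own strand, at chr13:78024652-78024951 (+), chr3:55055006-55055305 (-), chrX:83487875-83488174 (-) and chr9:36692970-36693269 (+), in this order. Capitals mark a match on either strand to TGTGTG, the kind of TG repeat that TDP-43 binds, to TGACG, the core of the cyclic AMP response element, or to AACGG, the core that MYB proteins bind.
Pou5f2: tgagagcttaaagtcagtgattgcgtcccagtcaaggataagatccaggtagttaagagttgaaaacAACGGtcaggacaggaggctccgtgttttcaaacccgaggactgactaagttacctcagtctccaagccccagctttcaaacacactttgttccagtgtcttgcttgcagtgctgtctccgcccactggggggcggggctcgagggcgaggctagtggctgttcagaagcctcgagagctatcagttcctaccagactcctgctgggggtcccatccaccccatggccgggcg
Ccna1: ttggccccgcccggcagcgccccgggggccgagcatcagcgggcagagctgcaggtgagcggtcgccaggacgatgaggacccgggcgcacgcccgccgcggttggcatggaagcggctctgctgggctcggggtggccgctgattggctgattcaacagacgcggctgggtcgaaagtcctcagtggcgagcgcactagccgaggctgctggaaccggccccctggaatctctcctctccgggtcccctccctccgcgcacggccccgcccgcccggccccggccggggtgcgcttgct
Tsga8: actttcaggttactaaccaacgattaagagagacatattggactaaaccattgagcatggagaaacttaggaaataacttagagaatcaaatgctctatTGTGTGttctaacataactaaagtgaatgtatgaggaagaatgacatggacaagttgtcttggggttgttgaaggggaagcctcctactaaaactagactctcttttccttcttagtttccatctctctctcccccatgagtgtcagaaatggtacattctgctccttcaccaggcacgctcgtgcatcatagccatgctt
Acrv1: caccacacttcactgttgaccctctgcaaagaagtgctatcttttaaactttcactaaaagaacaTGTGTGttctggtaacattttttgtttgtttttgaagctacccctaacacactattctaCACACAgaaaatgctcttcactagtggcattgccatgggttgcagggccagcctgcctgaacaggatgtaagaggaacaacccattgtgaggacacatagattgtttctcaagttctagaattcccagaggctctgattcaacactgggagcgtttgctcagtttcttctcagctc
Pou5f2 held 1 AACGG at -183 from the start, Tsga8 held 1 TGTGTG at -151, and Acrv1 held TGTGTG at -185 and, on the other strand, at -126. Ccna1 held none of the 3, but its stretch lies inside the gene by the other gene coordinates used here (chr3:55045469-55055501). Of 32851 promoters of this length, 21.1% held TGTGTG, 20.8% TGACG and 17.4% AACGG, so single matches are common and say nothing here of binding.

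The number of chosen cells differed widely between mice. Control replicates 1 to 4 gave 167, 357, 240 and 454 cells, which were 15.9%, 22.5%, 16.0% and 23.2% of the barcodes with at least 10000 UMIs. NELF-B cKO replicates 1 and 2 gave 306 and 7 cells, or 16.4% and 0.349%. TDP-43 cKO replicates 1, 2 and 3 gave 4, 57 and 55 cells, or 0.145%, 3.07% and 2.51%. The exact 95% binomial intervals of the 4 lowest shares, for counting error only, were 0.140% to 0.717% for NELF-B cKO replicate 2 and 0.0395% to 0.370%, 2.33% to 3.96% and 1.89% to 3.25% for the TDP-43 cKO mice. Each TDP-43 cKO mouse therefore lay under all 4 controls, whereas NELF-B cKO replicate 1 lay among them and only replicate 2 lay under them.

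The mean share was 19.4% ± 4.01 (SD, n = 4) in controls, 8.39% ± 11.4 (SD, n = 2) with NELF-B cKO and 1.91% ± 1.55 (SD, n = 3) with TDP-43 cKO. The exact two-sided permutation test over mice gave p = 0.4 for NELF-B cKO and p = 0.0571 for TDP-43 cKO, the latter being the smallest p that 3 against 4 mice allow (0.4 after adjustment over 14 such tests). With 2 against 4 mice the smallest p is 0.133. The share is of droplets and depends on how many other cells reached 10000 UMIs. A limit of 5000 UMIs gave the same number of chosen cells in each mouse. With barcodes thinned to 10000 UMIs and a marker sum of at least 5, control replicates 1 to 4 gave 199, 394, 287 and 502 cells. NELF-B cKO gave 358 and 9, and TDP-43 cKO 6, 62 and 63. Whether fewer cells or less RNA per cell set the share cannot be told apart by a rule that asks for UMIs.

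**Figure D1:**
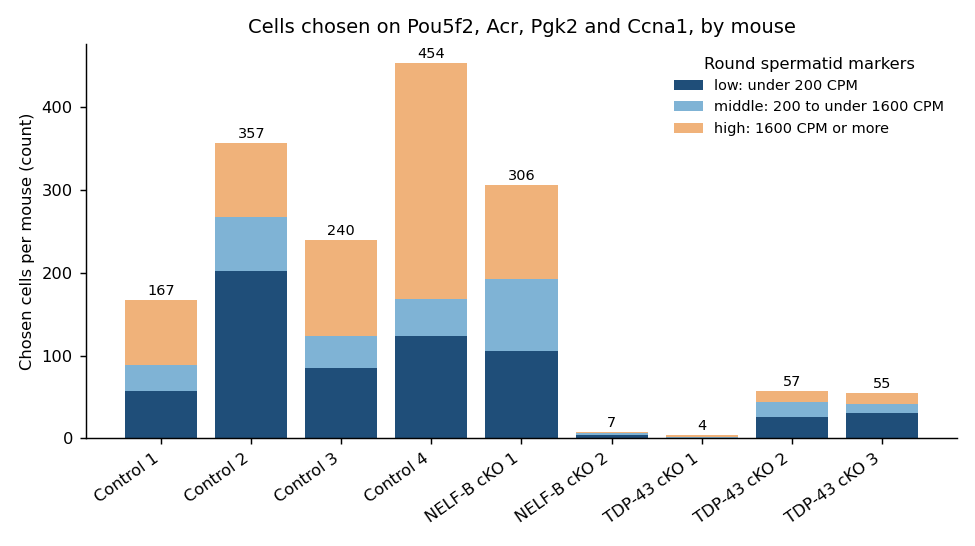
Stacked bars give the count of chosen cells in each of the 9 mice, split by the summed level of 8 RS markers into low (under 200 CPM), middle (200 to under 1600 CPM) and high (1600 CPM or more). The 4 control bars stand between 167 and 454 cells, NELF-B cKO replicate 1 stands at 306, and the other cKO bars stand between 4 and 57.

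Cells of all 3 ranges were present in every mouse with at least 7 chosen cells. The low range took 34.1%, 56.6%, 35.4% and 27.3% of the chosen cells in control replicates 1 to 4, 34.3% and 57.1% in NELF-B cKO replicates 1 and 2, and 45.6% and 56.4% in TDP-43 cKO replicates 2 and 3. The middle range took 9.69% to 19.2% in controls, 31.6% and 18.2% with TDP-43 cKO and, above all 4 controls, 28.8% and 28.6% with NELF-B cKO, the second from 2 of 7 cells (exact permutation p = 0.133, the smallest possible with 2 against 4). The high range took 46.7%, 24.9%, 48.3% and 63.0% in control replicates 1 to 4, 36.9% and 14.3% with NELF-B cKO, and 22.8% and 25.5% in TDP-43 cKO replicates 2 and 3 (exact permutation p = 0.267 for each genotype). Control replicate 2 alone gave the overlap in the high range. Without it the controls stood at 46.7% to 63.0%, above all 4 cKO mice with at least 7 chosen cells, and the low-range shares of the TDP-43 cKO mice lay above the 27.3% to 35.4% of these 3 controls (exact permutation p = 0.2 in each case, the smallest possible with 2 against 3). TDP-43 cKO replicate 1, with 4 cells, had none in the low range.

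Along the score, the genes of the rule followed different courses in controls. In the following, a level is the CPM of a gene, from its UMIs and all UMIs summed over the cells of a mouse, averaged over the 4 control mice, and pachytene cells are 1957 barcodes with at least 10000 UMIs, at least 10 Piwil1 UMIs and Piwil1 above the sum of the 4 markers. Pou5f2 stood at 55.3 CPM in pachytene cells, 216 ± 25.3 (SD, n = 4) in the low range, 19.6 ± 4.94 in the middle range and 5.79 ± 1.22 in the high range. Its low-range levels in the single control mice were 224, 207, 186 and 246 CPM, so the difference from the next range was far larger than the spread. Ccna1 went from 25 CPM in pachytene cells to 217, 404 and 173 CPM in the low, middle and high range. Pgk2 went from 54.2 to 243, 340 and 528 CPM and Acr from 98.0 to 176, 213 and 230 CPM, so these transcripts were still at their highest where RS markers were. Piwil1 was lower at each step, at 944, 340, 109 and 49.99 CPM. These values chose the cells or follow from the choice and are given as a description.

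Tbpl1, a TBP-like factor needed for spermiogenesis and the marker that the rule did not use, went the way of Ccna1, with 342 CPM in pachytene cells and 838 ± 38.6, 1013 ± 50.5 and 633 ± 105 CPM (SD, n = 4) in the low, middle and high range. Its 4 low-range control values, 788 to 878 CPM, did not overlap the 4 middle-range values, 940 to 1057 CPM. Tbpl1 was thus highest in the middle range and well above 0 in every range.

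Genes of the meiotic divisions had their highest level most often in the middle range. Genes of the rule, Piwil1 and the 8 RS markers were left out of the counts that follow. Of 30 genes of a meiotic G2/M and division list that reached 20 CPM in some range or in pachytene cells, 12 had their highest control mean in the middle range, 10 in pachytene cells, 7 in the low range and 1 in the high range. Of all 8848 genes at that level, 15.1% were highest in the middle range. Ccnb1, the B-type cyclin that drives entry into division, stood at 17.8 CPM in pachytene cells, 94.8 ± 15.4 in the low range, 350 ± 21.4 in the middle range and 184 ± 26.8 in the high range (SD, n = 4). Plk1 and Aurka, kinases of spindle assembly, reached 182 and 476 CPM in the middle range against 78.0 and 331 in the low range and 81.2 and 112 in the high range. Haspin, a histone H3 kinase of male germ cells, stood at 590, 715 and 578 CPM and Cdc25a, a phosphatase that activates cyclin-dependent kinases, at 46.7, 111 and 50.03 CPM. The kinases Aurkb and Aurkc peaked earlier, at 45.9 and 54.2 CPM in the low range.

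The genes of synapsis and exchange lay on the other side of the chosen cells. Of 22 recombination genes at 20 CPM or more, 17 were highest in pachytene cells, and of 15 genes of the synaptonemal complex and chromosome axis 10 were, against 40.9% of all genes. Sycp1, a transverse filament protein of the synaptonemal complex, stood at 1065 CPM in pachytene cells, 136 CPM in the low range and 151 and 180 CPM after it. Sycp3, of the axial elements, stood at 787, 335, 270 and 89.97 CPM. Hormad1, removed from axes on synapsis, stood at 406, 142, 107 and 31.9 CPM, and Syce1, of the central element, was an exception at 553, 809, 815 and 548 CPM. The sex body factors followed the same course, with 12 of 15 highest in pachytene cells. Atr, the kinase that starts silencing, stood at 330, 176, 99.5 and 29.7 CPM.

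Acrosome genes differed in how much of them the low range held. Of 25 acrosome genes, 13 were highest in the high range, 6 in the middle, 3 in the low range and 3 in pachytene cells. Some were already abundant in the low range, as were Spink2, an acrosomal protease inhibitor (1782 CPM), Zpbp2 (632 CPM) and Acrbp, which binds proacrosin (492 CPM). Others were near 0 there, and the following do not belong to the score. Spaca3, a lysozyme-like protein of the acrosome, stood at 4.72 ± 2.52 CPM in the low, 67.6 ± 18.5 in the middle and 654 ± 83.1 in the high range (SD, n = 4), and Izumo1, the sperm protein that binds the egg, at 0.461, 13.1 and 127 CPM. Of 25 genes of the flagellum and testis kinases, 18 were highest in the high range (27.8% of all genes were), among them Tekt4, a tektin, at 190, 536 and 707 CPM, and Odf1, of the outer dense fibres, at 2.47, 37.0 and 214 CPM. Rec8, the meiotic cohesin, stood at 1.13, 20.2 and 78.9 CPM, and Sox5, a transcription factor of spermatids, at 7.22, 40.2 and 365 CPM.

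**Figure D2:**
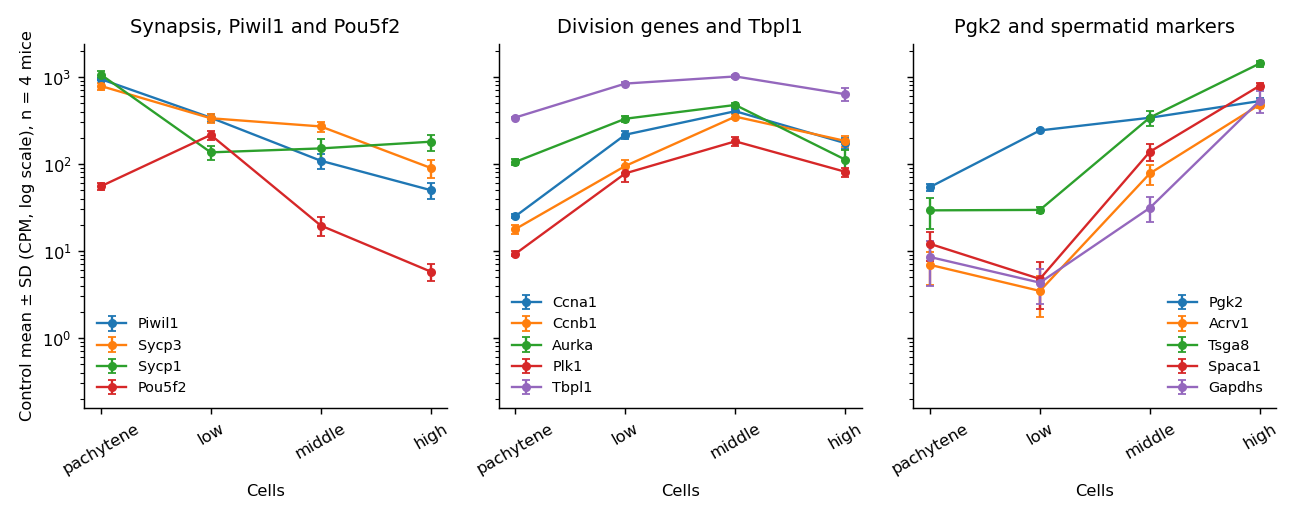
Control means with SD over 4 mice (CPM, log axis) are joined across pachytene cells and the low, middle and high range of the chosen cells, for synapsis genes with Piwil1 and Pou5f2, for division genes with Tbpl1, and for Pgk2 with RS markers. Pou5f2 is highest in the low range at 216 CPM, Ccna1, Ccnb1, Plk1, Aurka and Tbpl1 are highest in the middle range, and Pgk2, Acrv1, Tsga8, Spaca1 and Gapdhs are highest in the high range. Acrv1, Tsga8, Spaca1 and Gapdhs are part of the score, and Pou5f2, Ccna1, Pgk2 and Piwil1 are in the rule.

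The chosen cells shared their course of X-linked transcription, which the rule did not use. In controls, X-linked genes gave 0.159% of UMIs in pachytene cells, 0.0634% ± 0.0106 in the low range, 0.395% ± 0.0536 in the middle range and 1.34% ± 0.0991 in the high range (SD, n = 4), close to the 1.42% ± 0.0840 (SD, n = 4) of the RS barcodes of the same mice, which held at least 10 RS marker UMIs and had not been taken by the rule. Those RS barcodes also held 411 to 841 CPM of Sertoli markers, and 201 CPM of Leydig markers in control replicate 1, against 32.7 to 106 CPM and 3.61 to 7.14 CPM in the high range, and the part of this somatic RNA in comparisons with them was not tested. The low-range shares of the 4 control mice, 0.0545%, 0.0571%, 0.0781% and 0.0638%, lay under every pachytene value, the lowest of which was 0.143%. X-linked genes at 10 CPM or more numbered 2 to 5 per control mouse in the low range, 80 to 129 in the middle range and 185 to 204 in the high range. Of 149 X-linked genes that reached 20 CPM in any of these, Tsga8 not counted, 137 were highest in the high range (91.9% against 27.8% of all genes) and 0 in the low range. Tsga8 is X-linked and part of the score, and without its UMIs the control shares were 0.0512% to 0.0753% in the low and 1.07% to 1.28% in the high range. The other X-linked genes with the highest level over all chosen cells took the same course, among them Cypt1, at 1.41, 7.06 and 361 CPM in the low, middle and high range. Slxl1, a gene of the Slx family of spermatid genes, stood at 6.28, 196 and 596 CPM in the low, middle and high range, Gm5941 at 1.44, 30.7 and 393 CPM, and BC061195 at 1.66, 16.0 and 345 CPM.

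**Figure D3:**
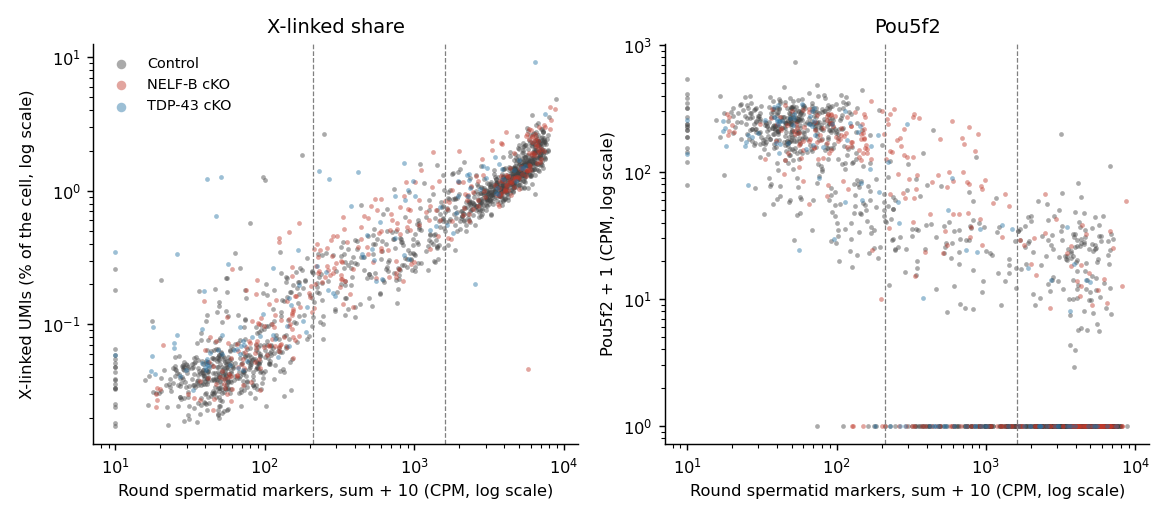
Each point is 1 chosen cell, coloured by genotype, with the summed RS marker level plus 10 on the x axis (CPM, log scale, dashed lines at the range limits) against the X-linked share of its UMIs in percent (left, log scale) and against Pou5f2 plus 1 in CPM (right, log scale). The X-linked share climbs with the RS markers without a break, and Pou5f2 thins out as they climb, with the 705 cells at 0 Pou5f2 UMIs along the bottom of the right panel.

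Autosomal retrocopies were abundant where their X-linked parents were near 0. UMIs of 3′ libraries count molecules and were not divided by length. In the low range, Pdha2, of pyruvate dehydrogenase, stood at 226 CPM against 0.244 CPM for X-linked Pdha1. The ribosomal protein copies Rpl39l and Rpl10l stood at 1147 and 141 CPM against 4.98 and 4.11 CPM for Rpl39 and Rpl10. Rbmxl2, a splicing regulator, stood at 130 against 0.309 CPM for Rbmx. Pgk2 stood at 243 CPM against 3.04 CPM for Pgk1, which is a description only, since Pgk2 is a gene of the rule. Some parents were higher in the high range where the copy was lower. Cstf2, a cleavage stimulation factor, went from 0.602 to 46.7 CPM while its copy Cstf2t went from 19.5 to 4.74 CPM, and Utp14a, of ribosome assembly, from 0.585 to 32.6 CPM while Utp14b went from 22.9 to 9.85 CPM. For others the parent stayed low, as Pgk1 stood at 6.21 CPM and Pdha1 at 0.508 CPM in the high range.

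Against pachytene cells, the genes with the highest ratio in the chosen cells were late genes of the high range. The 12 genes at the top of this ratio, among those at 100 CPM or more in the higher of both, had ratios of 43.9 to 54.6, and 5 of them were X-linked (BC061195, Slxl1, 1700010D01Rik, Gm5941 and Cypt1). Tex36 stood at 234 against 4.40 CPM and Hmgb4, an HMG-box protein, at 254 against 5.40 CPM. The 6 lowest ratios included Tex12, of the central element, at 14.0 against 164 CPM, and 4930447C04Rik, the file's name for the synapsis gene Six6os1, at 11.1 against 133 CPM.

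Against the RS barcodes, the genes with the highest ratio were highest in the low range, and pachytene cells had them too. Pabpc6, a poly(A)-binding protein, stood at 318 CPM in pachytene cells, 686 ± 62.0 CPM in the low range, 483 ± 98.8 in the middle and 70.4 ± 26.8 in the high range (SD, n = 4). Mesp1, a basic helix-loop-helix factor, stood at 325, 1194, 809 and 273 CPM in the same order, and Cdc42ep3, an effector of CDC42, at 851, 901, 274 and 70.1 CPM, so that the low range had hardly more of it than pachytene cells. Ratios of the 12 genes at the top ran from 3.52 to 6.01. The 3 lowest ratios were haemoglobin genes, at 0.105, 0.142 and 0.814 CPM in the chosen cells. One of them, Hba-a1, ran from 0 to 971 CPM in the RS barcodes of the 4 control mice, so 1 library set its mean.

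Nelfb (chr2:25199712-25211489) checks the NELF-B cKO labels, because the floxed stretch holds its first exons. In pachytene cells it stood at 27.1, 26.4, 25.4 and 30.5 CPM in control replicates 1 to 4 and at 1.75 and 4.15 CPM with NELF-B cKO. In the low range of the chosen cells it stood at 9.33, 7.997, 6.44 and 7.17 CPM in controls, 8.63 and 7.28 CPM in TDP-43 cKO replicates 2 and 3, and 0.695 and 1.08 CPM in NELF-B cKO replicates 1 and 2, from 8 UMIs in 105 cells and 1 UMI in 4 cells. The NELF-B cKO mice did not overlap the others. Nelfb fell by 3.41 on the log2 scale (SE 0.378, adjusted p = 0.00925, edgeR quasi-likelihood test with Benjamini-Hochberg adjustment over 13014 genes). Over the alternatives tried, this change ran from -3.50 to -2.81 without single mice, and its adjusted p reached 0.0632.

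The high range did not share this loss. There Nelfb stood at 7.29, 7.83, 8.71 and 6.497 CPM in controls and at 16.9 CPM (exact 95% Poisson interval 13.8 to 20.5, for counting error only) in NELF-B cKO replicate 1, from 105 UMIs. UMIs of Nelfb were found in 51 of its 113 high-range cells (45.1%, exact 95% binomial interval 35.8% to 54.8%), against 2 of 88 middle-range and 7 of 105 low-range cells of the same mouse, where the median depth was 43167, 48430.5 and 103032 UMIs. The 1 high-range cell of NELF-B cKO replicate 2 held 8 Nelfb UMIs. Free RNA of NELF-B cKO replicate 1 held 2.78 CPM of Nelfb, under its high range and above its low and middle ranges. The RS barcodes of this mouse held 30.9 CPM, beside 145 CPM of Sertoli markers. This lay within the 14.2 to 46.5 CPM of the RS barcodes of controls. Over all chosen cells Nelfb therefore stood at 4.90 and 8.12 CPM with NELF-B cKO against 6.74 to 7.82 CPM in controls, which overlap.

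Tardbp (chr4:148612382-148627019) is no such check, since its floxed stretch is the third exon and leaves the first exons in place. For both genes 3′ UMIs lie outside the floxed stretch. In pachytene cells Tardbp stood at 145, 125, 134 and 143 CPM in control replicates 1 to 4 and at 138 and 183 CPM in NELF-B cKO. TDP-43 cKO replicates 1 to 3 lay under all 4 controls, at 89.5, 116 and 108 CPM, the first from 5 cells. This difference was not tested. In the low range it stood at 69.8, 50.9, 70.5 and 70.6 CPM in controls, 80.8 and 67.0 CPM in NELF-B cKO and 47.3 and 49.9 CPM in TDP-43 cKO replicates 2 and 3. The TDP-43 cKO mice lay just under control replicate 2 and well under the other 3 controls, and the change did not pass the test (log2 fold change -0.47, SE 0.162, adjusted p = 0.424, edgeR), nor did it without control replicate 2 (log2 fold change -0.58, SE 0.133, adjusted p = 0.198, edgeR). Its control levels were 137, 65.4, 46.3 and 23.9 CPM from pachytene cells to the high range.

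**Figure D4:**
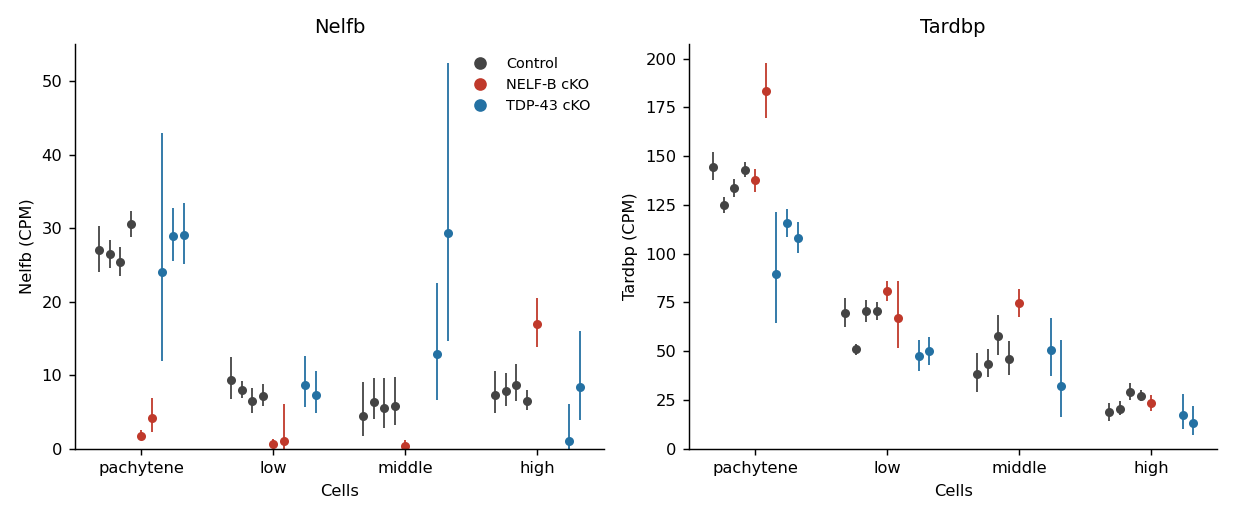
Points give Nelfb (left) and Tardbp (right) in CPM for each mouse with at least 4 cells, with exact 95% Poisson intervals as bars, in pachytene cells and in the low, middle and high range. Nelfb of the NELF-B cKO mice lies under every control in pachytene and low-range cells, and that of the 1 mouse shown in the middle and high range (NELF-B cKO replicate 1) lies under every control in the middle range and above every control in the high range, at 16.9 CPM.

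Over all chosen cells, no gene passed the test for a genotype. Counts were summed per mouse over 4 control, 2 NELF-B cKO and 2 TDP-43 cKO mice (TDP-43 cKO replicate 1, with 4 cells, was not in the fit), and 17942 genes were tested with edgeR's quasi-likelihood test. At an adjusted p under 0.05, 0 genes (0%) were called for NELF-B cKO against control, for TDP-43 cKO against control and for TDP-43 cKO against NELF-B cKO, with smallest adjusted p-values of 0.220, 0.122 and 0.382. At an unadjusted p under 0.05 there were 1387 (7.73%), 2842 (15.8%) and 1769 (9.86%) genes, and DESeq2 called 30, 373 and 28. The comparisons share the control or cKO mice, and the p-values measure the spread between mice. Leaving out control replicate 2 gave 1985 of 16822 genes for TDP-43 cKO against control (11.8%), 371 higher (2.21%) and 1614 lower (9.59%). The count of 0 thus depends on that mouse. Without it, the split of the libraries by free Prm1 falls together with the TDP-43 genotype, and both cannot be told apart in the 1985 genes.

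Over all chosen cells, lists of late genes had medians below that of all genes in both comparisons with control. For NELF-B cKO, the protamine and transition protein list did not keep this in the low range (median 0.19). Between TDP-43 and NELF-B cKO, 6 of 12 protamine and transition protein genes were lower at an unadjusted p under 0.05 (median -0.89). So were 1 of 27 flagellum and kinase genes (median -0.09) and 2 of 27 acrosome genes (median -0.04), with 0 higher in each list. Over all genes 9.86% passed in either direction, with a median of -0.02. No list was tested as a whole, and the values that follow are against control. For TDP-43 cKO, of 27 flagellum and kinase genes tested, 17 were lower at an unadjusted p under 0.05 and 0 higher, with a median log2 fold change of -0.88, against 9.96% lower and 5.88% higher over all genes and a median of 0.00. Of 12 protamine and transition protein genes, 7 were lower (median -1.14), and of 27 acrosome genes 12 (median -0.31). Prm1, a member of the protamine list, stood at 255, 3.08, 2127 and 897 CPM in control replicates 1 to 4. It stood at 0.602 and 0.189 CPM in TDP-43 cKO replicates 2 and 3. The part of this split between libraries in the list was not tested. Recombination genes had 4 of 29 higher and 1 lower (median 0.21). None of these genes passed adjustment over all genes. In the fit without control replicate 2, given next, the split of the libraries by free Prm1 falls together with the TDP-43 genotype. Without control replicate 2, edgeR called 15 of the 27 flagellum and kinase genes lower and 1 higher (median -1.09), 7 of the 12 protamine and transition protein genes lower (median -1.33) and 12 of the 27 acrosome genes lower (median -0.32), against 9.59% lower, 2.21% higher and a median of 0.03 over all genes. For NELF-B cKO, 5 of the 27 flagellum and kinase genes (median -0.44), 7 of the 27 acrosome genes (median -0.27) and 0 of the 12 protamine and transition protein genes (median -0.09) were lower at an unadjusted p under 0.05 and 0 higher, against 3.6% lower, 4.13% higher and a median of -0.03 over all genes. Without control replicate 2 these were 17, 14 and 1 lower and 1, 0 and 0 higher (medians -0.64, -0.31 and -0.23), against 11.9% lower and 6.54% higher over all genes, and none passed adjustment. Markers of other cell types were read in the same fits. For TDP-43 cKO against control, with control replicate 2 kept, the 6 Leydig markers tested had a median of -0.53 with 1 higher at an unadjusted p under 0.05, and the 1 macrophage marker tested had a log2 fold change of -3.90. For NELF-B cKO against control, all 6 Leydig markers had a fitted change above 0 (5 higher at an unadjusted p under 0.05, median 2.47), and 2 of 7 Sertoli markers were lower (median -0.64). Their part in the values of the late genes was not tested. The share of high-range cells given above was lower in the cKO mice of these fits than in control replicates 1, 3 and 4, and its part in these values was not tested.

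In the TDP-43 cKO mice the chosen cells also held markers of spermatogonia and early meiosis (Uchl1, Crabp1, Stra8, Prdm9, Dmc1 and Prss50), summed to 56.4 and 70.3 CPM in replicates 2 and 3 against 13 to 25.7 CPM in controls, and to 25.4 CPM in the 4 cells of replicate 1, which was not in the fit. In the middle range they summed to 225 and 280 CPM in TDP-43 cKO replicates 2 and 3, from 18 and 10 cells, against 19.5 to 31.3 CPM in controls. In the low range they summed to 19.2 and 47.8 CPM against 11.4 to 16.7 CPM. In the high range it was 11.9 and 77.7 CPM against 12.4 to 37.8 CPM. All 6 markers had a fitted change above 0 in replicates 2 and 3 against control (3 at an unadjusted p under 0.05, median log2 fold change 1.40). At least 10 such UMIs were found in 5 of 57 and 7 of 55 cells of these mice, in 1, 4, 5 and 8 of the 167, 357, 240 and 454 cells of control replicates 1 to 4, and in 3 of 306 cells of NELF-B cKO replicate 1. Without the 33 such cells of all mice edgeR again called 0 genes in each comparison, with 1394, 1909 and 1171 at an unadjusted p under 0.05 for NELF-B cKO, TDP-43 cKO and the comparison of both.

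The low range, where Pou5f2 was highest, was tested on its own, with mice of at least 4 such cells. This limit was chosen after the counts were seen so that NELF-B cKO replicate 2 could enter. Its 4 cells had a median of 191080 UMIs and 9796 detected genes. The low ranges of the controls had medians of 78651 to 109314 UMIs and 8109 to 8641 genes, and no doublet caller was run. Of 13014 genes, 56 were called for NELF-B cKO against control (0.43%), 44 higher (0.338%) and 12 lower (0.0922%), and 1440 passed an unadjusted p under 0.05 (11.1%). The mice of the groups did not overlap in 54 of the 56, where the call itself favours such genes, against 22.6% of all genes tested, and 47 changed by at least 1 on the log2 scale. The count is fragile: without single mice it ran from 2 (control replicate 3 left out) to 864 (NELF-B cKO replicate 1 left out, so that 4 cells stand for the genotype), with 189 when NELF-B cKO replicate 2 was left out, where NELF-B cKO replicate 1 stands for the genotype. In both of these the lone mouse is assumed to vary like those of the other groups. Of the 56 called genes, 26 had a control mean of 10 CPM or more, 9 had 3 UMIs or fewer in NELF-B cKO replicate 2, and 12 reached the level of the filter on low counts (1.44 CPM in at least 2 mice) only through the NELF-B cKO mice.

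Besides Nelfb, 11 genes fell. Ddit4l, an inhibitor of mTOR signalling, stood at 70.8, 69.3, 69.4 and 69.3 CPM in controls and 31.0 and 20.5 CPM in NELF-B cKO (log2 fold change -1.33, adjusted p = 0.0202, edgeR), with 51.1 and 82.6 CPM in TDP-43 cKO. Rnpep, an aminopeptidase, stood at 25.2 to 30.01 CPM in controls and 12.1 and 5.41 CPM in NELF-B cKO (log2 fold change -1.40). Gm9748 stood at 112 to 144 CPM against 54.0 and 50.8 CPM (log2 fold change -1.29). The 2 mitochondrial genes Sirt4, a sirtuin, and Slc25a1, the citrate carrier, fell by 1.04 and by 1.09 on the log2 scale, and Grsf1, an RNA-binding protein of mitochondria, by 0.71. Chrac1, a histone-fold protein, was the most abundant of the 11, at 1028 to 1219 CPM in controls and 767 and 808 CPM in NELF-B cKO. Syt5, Gm32975, Ctxn1 and Nemp1 made up the rest. Over the alternatives, the adjusted p of Ddit4l, Rnpep and Gm9748 reached 0.110, 0.0948 and 0.0583 (edgeR or DESeq2).

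Of the 44 genes that rose, 4 were X-linked, as were 214 of the 13014 genes tested (1.64%). Tsga8 stood at 32.6, 30.7, 28.1 and 27.1 CPM in controls and at 60.7 and 80.0 CPM in NELF-B cKO (log2 fold change 1.16), though it belongs to the score that bounds the range. Spin2e and Spin2d, of the spindlin family, rose from 2.64 to 3.54 and from 1.33 to 2.79 CPM to 13.8 and 11.9 CPM and to 8.52 and 9.73 CPM, and Ubl4a, a ubiquitin-like protein, from 3.58 to 5.85 CPM to 14.7 and 11.9 CPM. Among autosomal genes, Uck2, a uridine-cytidine kinase, stood at 80.7 to 97.5 CPM in controls and 157 and 199 CPM in NELF-B cKO (log2 fold change 0.94), and Agtr1b, an angiotensin II receptor, at 28.8 to 30.8 and 64.2 and 56.2 CPM (1.02). Fos, of the AP-1 factor, stood at 2.09 to 4.11 and 10.9 and 20.5 CPM (2.02). It was the 1 called gene of 9 stress and immediate early genes tested, where 0.338% of all genes were called higher. At an unadjusted p under 0.05, 4 of the 9 were higher (median 0.56) against 5.91% of all genes. With TDP-43 cKO 3 of the 9 were higher (median 0.46) against 4.23%.

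Some of the genes that rose are those of Leydig cells. Cyp11a1, Cyp17a1 and Hsd3b6, enzymes of steroid synthesis, were called, and so was Lhcgr, the receptor for luteinizing hormone, at 0.222 to 0.438 CPM in controls and 3.22 and 3.24 CPM in NELF-B cKO. Lhcgr and Hsd3b6 are among the 12 genes that entered the test only through the NELF-B cKO mice, so their calls follow in part from the filter, and the 3.24 CPM of Lhcgr is 3 UMIs. The summed Leydig markers stood at 41.7 and 32.4 CPM in low-range NELF-B cKO cells against 6.13 to 13 CPM in controls, and at 540 and 1440 CPM in their free RNA against 63.4 to 128 CPM. The part of free RNA in these values was not tested. Apoe and Akr1cl, also called, stood at 311 and 1641 and at 182 and 641 CPM in NELF-B cKO free RNA against 34.9 to 57.4 and 26.1 to 49.4 CPM in controls.

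For TDP-43 cKO against control, 2 genes were called in the low range (0.0154%), both higher. Pbld1, a protein with a phenazine biosynthesis-like domain, stood at 2.23, 1.31, 2.00 and 2.39 CPM in controls, 2.26 and 0 CPM in NELF-B cKO and 14.7 and 19 CPM in TDP-43 cKO (log2 fold change 3.09, SE 0.338, adjusted p = 0.0168, edgeR). Free RNA held 9.28 to 23.1 CPM of Pbld1 in controls and 31.2 and 25.7 CPM in these TDP-43 cKO mice. Nmnat3, the mitochondrial enzyme of NAD synthesis, stood at 41.4, 36.3, 21.5 and 38.8 CPM in controls and 135 and 102 CPM in TDP-43 cKO (log2 fold change 1.73, adjusted p = 0.0413, edgeR). Over the alternatives, the adjusted p of Pbld1 and Nmnat3 reached 0.428 and 0.206 (edgeR or DESeq2). Nmnat3 was also among the 44 genes of NELF-B cKO, at 78.6 and 97.3 CPM (log2 fold change 1.28), and both comparisons share the same controls. Between TDP-43 and NELF-B cKO, 0 genes were called (0%), 1402 passed an unadjusted p under 0.05 (10.8%) and DESeq2 called 46. Nelfb had the smallest adjusted p there, 0.0556 (edgeR).

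The lists of meiosis and of late genes were read in the low range at an unadjusted p under 0.05, against 5.91% higher and 5.16% lower over all genes for NELF-B cKO. Here and over all chosen cells, only genes of the rule and Piwil1 were left out of the lists. The acrosome list and the flagellum and kinase list thus kept RS markers of the score, with 27 genes each against 25 without them. The score bounds this range, 6 of its 8 markers were tested in it, and their part in the list values was not tested. Of 36 division genes 2 were higher and 1 lower, of 28 recombination genes 1 and 1, of 20 sex body genes 4 and 0, and of 23 acrosome genes 0 and 5. Their medians were -0.01, 0.01, 0.05 and -0.22 on the log2 scale against -0.01 over all genes, and none of these genes passed the edgeR test after adjustment. Of 25 flagellum and kinase genes 1 was higher and 1 lower (median -0.13). Of 12 protamine and transition protein genes 1 was higher and 0 lower, and 9 had a fitted change above 0 (median 0.19). None of these passed adjustment. For TDP-43 cKO, where 8.66% of genes passed the unadjusted p, acrosome genes had 8 of 23 lower (median -0.18) against 4.43% lower over all genes. Flagellum and kinase genes had 8 of 25 lower (median -0.37) and protamine and transition protein genes 5 of 12 (median -1.79), with 0 higher in both. Of 12 p53 and checkpoint genes, 4 were higher (median 0.33), and of 20 sex body genes 4 (median 0.09), against 4.23%, and none of these passed adjustment. In the same comparison 4 of 5 spermatogonia and early meiosis markers were higher (median 1.22), and of 7 Sertoli markers 1 was higher and all had a fitted change above 0 (median 0.84). The part of such cells or RNA in these values was not tested. Prm1 split the controls in this range, with 0.836 CPM in control replicate 2 and 13.5 to 28.7 CPM in the others, against 0.320 and 0.260 CPM in TDP-43 cKO.

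**Figure D5:**
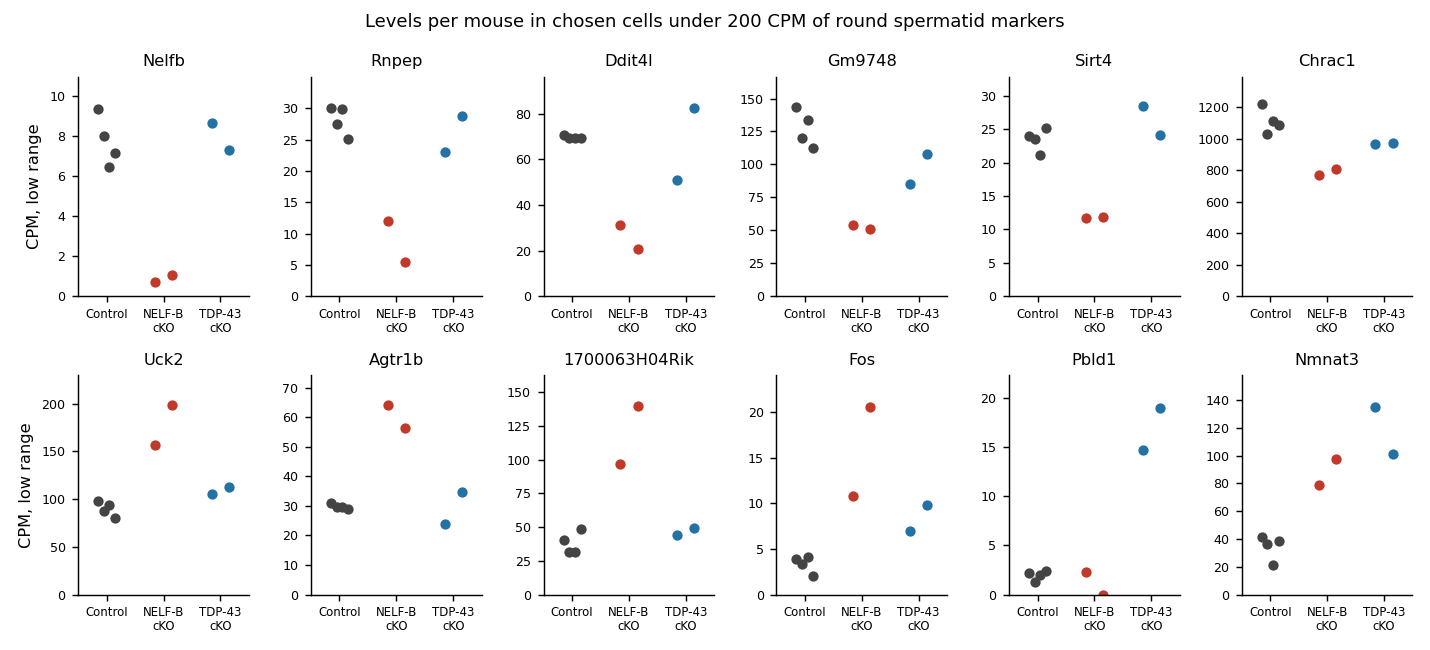
Each point is 1 mouse with at least 4 low-range cells, and each panel gives the level of 1 gene in CPM over those cells, from 0. The NELF-B cKO points (2 mice) lie under all 4 controls for Nelfb, Rnpep, Ddit4l, Gm9748, Sirt4 and Chrac1 and above them for Uck2, Agtr1b, 1700063H04Rik and Fos, and the TDP-43 cKO points (2 mice) lie above them for Pbld1 and Nmnat3.

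Silencing of the X chromosome in the low range was compared between genotypes by its share of UMIs. It was 0.0892% and 0.0843% in NELF-B cKO replicates 1 and 2 against 0.0545% to 0.0781% in controls, which did not overlap (exact permutation p = 0.133, the smallest possible). The summed RS markers of the same low-range cells, which climb together with the X-linked share, also lay higher without overlap, at 79.7 and 82.2 CPM against 42.5 to 71.0 CPM in controls, and their part in the difference was not tested. The X-linked share was 0.0757% and 0.143% in TDP-43 cKO replicates 2 and 3 (exact permutation p = 0.267). Leaving out cells with at least 10 UMIs of early markers moved the last value to 0.0768% and the others to between 0.0539% and 0.0864%. Every low-range share stood far below the 1.20% to 1.42% of the control high range. Over all chosen cells the share was 0.303% to 0.709% in controls, 0.579% and 0.282% in NELF-B cKO (exact permutation p = 0.4) and 0.442% and 0.428% in TDP-43 cKO (exact permutation p = 0.533), and it moves with the share of high-range cells in each mouse. Without control replicate 2, the lowest control stood at 0.567% and both TDP-43 cKO mice lay under it (exact permutation p = 0.2, the smallest possible with 2 against 3).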

How the data were processed

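Whole-testis suspensions of 9 mice were sequenced as droplet 3′ libraries, 1 per mouse. The authors aligned and counted reads against mm10 with Cell Ranger (the submitters' processing notes name 6.1.1 and 7.0.0, the file headers 4), and deposited unfiltered counts of UMIs per gene and barcode for 32285 genes. The notes also name Seurat 4.2.0 and DESeq2 1.36. The deposited counts were used as they are. Groups follow the labels.

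Members and gene lists were chosen with earlier results of these data known, and the limits of 200 and 1600 CPM and the low-range test after seeing the values. Cells were taken by the rule on all 9 matrices. No doublet caller was run and no germ cell was removed for a UMI of Nelfb or Tardbp. Pachytene and RS barcodes were taken by Piwil1 and by the 8 RS markers. Counts were summed per mouse over chosen cells (mice with at least 5 cells, or 4 in the low range), filtered with filterByExpr, scaled by TMM and tested with edgeR 4.0.16 (glmQLFit, glmQLFTest) in R 4.3.3, all groups in 1 fit, with Benjamini-Hochberg adjustment over all genes tested. The sums held 1108707 to 35380454 UMIs per mouse. The script was tested on simulated data. DESeq2 1.42.0, other member rules, other thresholds and left-out mice were the alternatives. Values over mice were compared by exact two-sided permutation tests (scipy 1.17.1). Intervals are exact and cover counting error only.

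Genes were named by rule: the marker and targeted genes, list members that passed or had the highest control level, the 6 most changed genes per direction and contrast, and the genes with the highest and lowest ratio to pachytene and RS barcodes. Low-range genes in the text were chosen after their values were seen. Of the list symbols, 8 were matched by older names in the files and 2 (Pdilp and Ddit3) had no single match. Promoter sequences are RefSeq, GRCm38.p6.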

Additional observations from a re-analysis of the deposited data

Results flagged for a closer look

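Tardbp in the low range stood at 50.9 CPM in control replicate 2, apart from the other 3 controls at 69.8 to 70.6 CPM. Its gap to them was 0.958 of the range of the 4 mice, above the 95% critical value of Dixon's test for 4 samples. It was 1 of 47 groups tested in this way, and chance flags about 1 in 20. The TDP-43 cKO values were 47.3 and 49.9 CPM. The same mouse had the lowest low-range Prm1 of the controls, at 0.836 CPM against 13.5 to 28.7 CPM, which this test did not flag.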

How the results depend on the processing

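The labels do not say whether the replicate numbers pair mice. Deviations of same-numbered mice from their group means correlated at -0.05, 0.39, 0.17, 0.09 and 0.05. With 2 mice in each cKO group the deviations of a group mirror each other, so these values cannot decide on pairing. With a replicate block, 0 genes were called for NELF-B cKO, 190 for TDP-43 cKO and 97 between the cKO groups.

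For all chosen cells, NELF-B cKO against control gave 30 genes with DESeq2, 16 without cells of 10 or more RS marker UMIs and 2 with a marker sum of 0.1% of UMIs, and 0 without any single mouse. TDP-43 cKO gave 373 with DESeq2, 1 without the RS marker cells, 184 without cKO cells holding a UMI of the targeted gene, and 0 to 1985 without single mice. TDP-43 against NELF-B cKO gave 28 with DESeq2, 1344 without cKO cells holding a UMI of the targeted gene, and 0 without any single control mouse. The targeted-gene setting left 8 and 13 chosen cells in TDP-43 cKO replicates 2 and 3. It left 246 and 5 in NELF-B cKO replicates 1 and 2. Leaving out the RS marker cells left 78 and 1 cells in these NELF-B cKO mice, and the 0.1% sum left 65 and 2. With a limit of 5 cells per mouse, NELF-B cKO replicate 1 alone stands for the genotype in both settings. It is assumed there to vary like mice of the other groups, so the NELF-B cKO counts of these settings do not measure the spread between NELF-B cKO mice. In the low range, NELF-B cKO gave 189 with at least 5 cells per mouse (1 NELF-B cKO mouse), 98 with DESeq2 and 2 at an adjusted p under 0.01 with a log2 change of 1 (2 to 864 without single mice). Leaving out control replicates 1, 2, 3 and 4 gave 21, 31, 2 and 5, and TDP-43 cKO replicates 2 and 3 gave 30 and 23. TDP-43 cKO gave 4, 11 and 0 (0 to 5), and the comparison of the cKO groups 49 and 46 (0 to 703). The share of chosen cells kept its direction, at 0.0180 to 0.846 and 0.0683 to 0.144 of control without single mice. The difference in X-linked share (-0.12 and -0.11 percentage points) turned to 0.0173, 0.0333 (without NELF-B cKO replicate 2, and with at least 20 cells), 0.0234 in the low and 0.622 in the high range for NELF-B cKO (0.268 without the 1 high-range cell of NELF-B cKO replicate 2), and to 0.0627 without the RS marker cells, 0.0458 and 0.106 for TDP-43 cKO. Without single mice it ran from -0.264 to 0.0333 and from -0.192 to -0.0563. The log2 change of Nelfb over all chosen cells turned (0.11 without NELF-B cKO replicate 1, -0.69 to 0.11 without single mice). It was 0.14 with the 0.1% sum, where NELF-B cKO replicate 1 alone stands for the genotype. Those of Gcat (-5.68) and Hivep2 (-6.39) turned without targeted-gene cells, and that of Gm29414 (0.11) without RS marker cells. Gcat and Hivep2 were near 0 in controls, at 0.293 to 0.532 and 0.293 to 1.24 CPM. The cause of these shifts was not tested. NELF-B cKO replicate 2 and TDP-43 cKO replicate 1 had 7 and 4 chosen cells, at median depths within those of the controls over all chosen cells. In the low range, the 4 cells of NELF-B cKO replicate 2 had a median of 191080 UMIs, above the 78651 to 109314 of the controls.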

Other observations

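The free RNA of the libraries carried the RS transcripts unevenly. Tsga8 stood at 654, 204, 416 and 431 CPM in barcodes of at most 100 UMIs of control replicates 1 to 4, at 426 and 40.2 CPM in the NELF-B cKO mice and at 10.9, 65.7 and 43.0 CPM in the TDP-43 cKO mice. Tnp1, a transition protein gene, stood at 34.9 CPM in control replicate 2 against 420 to 515 CPM in the other controls. In the high range of the chosen cells Prm1 stood at 672, 12.3, 6203 and 1851 CPM in control replicates 1 to 4, while Acrv1 stayed between 422 and 513 CPM in all 4. The median high-range cell of these mice held 2, 0, 2 and 1 Prm1 UMIs, so the Prm1 sums rest on a minority of cells, and over all mice Prm1 stood at 20.9 CPM from 1600 to under 3200 CPM of the RS markers and at 7075 CPM from 6400 CPM up.

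The other subunits of NELF were lower in the high range of controls than in pachytene cells, as Nelfb was, apart from Nelfe. Nelfa stood at 62.7, 38.7, 20.1 and 9.23 CPM from pachytene cells to the high range, Nelfcd at 34.6, 18.0, 11.9 and 4.48 CPM and Nelfe at 165, 126, 112 and 188 CPM. Of 17 genes of NELF, DSIF and P-TEFb at 20 CPM or more, 12 were highest in pachytene cells, as were 40.9% of all genes at that level. Larp7, of the 7SK particle, and Brd2 were highest in the middle range, at 763 and 347 CPM.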
